A study of Mus musculus with 9 samples.

Results

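The genes described here move salt and water across the walls of the alveoli and small airways. They are 9 of the 45777 genes in the deposited mouse lung table, chosen by symbol: Scnn1a, Scnn1b, Scnn1g, Cftr, Atp1b1, Aqp1, Aqp4, Slc12a2 and Ano1. The rule names symbols and no measured value, but the genes were picked with earlier results of these data known. All 9 genes passed the low-count filter that left 18716 genes for testing.

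The mice were C57BL/6N males in 3 groups, NC, COPD and EA-BN-H, and each group gave 3 lung RNA libraries. NC mice received PBS through the nose and COPD mice received LPS (lipopolysaccharide, 0.5 mg/kg) with CSC (cigarette smoke condensate, 12.5 mg/kg) by the same route, on day 1 and again on days 6 and 13 of the experiment. The EA-BN-H mice had the same LPS and CSC instillations and were dosed by mouth with 200 mg/kg of EA-BN, an ethyl acetate fraction of Boehmeria nivea leaves, each day from day 1 to day 14. NC and COPD mice drank only the 2% DMSO vehicle, which also carried EA-BN, and all lungs were taken on day 15. The age of the mice is not given in the sources used here. The LPS and CSC instillations are an induced lung injury of about a fortnight rather than a long smoke exposure, and whole lung tissue was used, so a change in the number of cells of a type and a change in RNA per cell cannot be told apart. Nothing in the labels names the animals behind the libraries, so p-values measure the spread between these libraries.

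Fluid is cleared from the airspace by sodium transport. Sodium enters epithelial cells from the airspace through the epithelial sodium channel (ENaC), leaves on the blood side through the Na,K-ATPase, and water follows, in part through aquaporins. Secretion runs the other way: chloride is loaded into the cell by a cotransporter and leaves to the airspace through chloride channels. Scnn1a, Scnn1b and Scnn1g encode the alpha, beta and gamma subunits of ENaC. Atp1b1 encodes the beta subunit that brings the sodium pump to the membrane. Aqp1 and Aqp4 encode water channels, Aqp1 being best known from endothelium. Slc12a2 encodes NKCC1, the cotransporter that loads chloride, and Cftr and Ano1 encode a cAMP-regulated and a calcium-activated chloride channel.

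Positions are given in build mm10. Scnn1g (chr7:121734420-121768482) and Scnn1b (chr7:121865038-121918728) are neighbours, and Ano1 is on the same chromosome (chr7:144588549-144752026). Scnn1a (chr6:125314271-125344943), Cftr (chr6:18170687-18322770) and Aqp1 (chr6:55336299-55348555) share another chromosome, and Atp1b1 is at chr1:164437099-164458355. These spans run over all exons, introns and UTRs of the listed transcripts, and the positions of Aqp4 and Slc12a2 follow with their values.

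Cftr and Atp1b1 had the smallest p-values of the 9 genes in COPD against NC, in opposite directions, so the bases just before their RefSeq start sites are shown. RefSeq promoters of build GRCm38.p6 were matched for 6 of the 9 genes. The Atp1b1 stretch is chr1:164458356-164458605 on the minus strand and the Cftr stretch is chr6:18170437-18170686 on the plus strand. Capitals mark the GC box (GGGCGG, or CCGCCC on the other strand), the CCAAT box (CCAAT, or ATTGG) and TATATA, searched on both strands, and adjoining GC boxes overlap in Cftr.
Atp1b1: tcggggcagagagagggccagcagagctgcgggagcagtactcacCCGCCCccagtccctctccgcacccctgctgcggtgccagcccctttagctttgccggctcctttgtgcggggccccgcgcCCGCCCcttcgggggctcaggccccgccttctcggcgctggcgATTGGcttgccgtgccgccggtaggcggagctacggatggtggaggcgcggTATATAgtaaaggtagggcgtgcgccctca
Cftr: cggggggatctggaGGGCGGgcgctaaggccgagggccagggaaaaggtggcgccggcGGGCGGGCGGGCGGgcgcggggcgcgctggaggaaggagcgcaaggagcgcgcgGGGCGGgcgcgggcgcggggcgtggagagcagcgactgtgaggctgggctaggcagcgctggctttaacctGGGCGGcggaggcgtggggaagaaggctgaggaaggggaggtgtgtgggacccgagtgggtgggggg
Both stretches are rich in G and C, with 70.4% in Atp1b1 and 76.4% in Cftr against a median of 52% over 27025 promoters. The CG dinucleotide occurs 24 times in Atp1b1 and 30 times in Cftr, against a median of 6. Cftr has 6 GC boxes and no CCAAT box, and Atp1b1 has 2 GC boxes and 1 CCAAT box. A GC box is found in 32.9% of all promoters of this length, a CCAAT box in 34.5% and TATATA, which Atp1b1 has once, in 5.56%. The motif TATAAA, present in 13% of promoters, is in neither stretch.

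The libraries held between 25232402 and 42156219 counts. Signal recognition particle RNA (the Rn7s genes) took from 32.5% to 51% of the counts in 8 libraries and 63.5% in EA-BN-H replicate 3, which left 25.9% of that library for nuclear protein-coding genes. Counts scaled to library size (CPM) below are scaled by TMM, a method that sets aside such dominant RNAs. NC replicate 1 stood apart in tissue markers. Its 6 airway secretory markers (Scgb1a1 and others) summed to 28780 CPM, against 10070 and 14410 in the other NC libraries and 4427 to 10670 in the 6 exposed libraries. Its 8 endothelial markers summed to 383.9 CPM, against 507.4 to 1208 in the other 8 libraries, and its 7 alveolar type 1 markers to 522.2 CPM, against 603.5 to 1530. Leukocyte markers summed to 317.4 to 726.4 CPM in NC, 1007 to 2334 in COPD and 667.2 to 1916 in lungs given EA-BN. Markers of lung epithelium were present throughout (Sftpc 233.6 to 1226 CPM), while the ionocyte marker Foxi1 and the basal markers Krt5 and Krt14 were at 0 in all 9 libraries and the basal marker Trp63 was at most 1.14 CPM.

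Per length, in the authors' TPM (scaled by transcript length and library size, summed over the transcripts of a gene), Atp1b1 had the highest level of the 9 genes in all 9 libraries, Aqp4 was the eighth and Cftr the lowest. In NC the levels were 62.7 ± 25.4 TPM for Atp1b1 (mean ± SD, n = 3), 29.6 ± 10.9 for Scnn1b, 25.7 ± 5.51 for Scnn1a, 16.4 ± 1.95 for Aqp1, 16.0 ± 8.12 for Slc12a2, 13.1 ± 3.35 for Scnn1g, 8.19 ± 1.76 for Ano1, 3.13 ± 2.69 for Aqp4 and 0.926 ± 0.0670 for Cftr. Scnn1b and Scnn1a changed places between NC libraries, as did Aqp1, Slc12a2 and Scnn1g, so these neighbours are not told apart. In the 3 COPD libraries Aqp1 came second.

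In COPD lungs none of the 9 genes was called higher or lower than in NC at an adjusted p under 0.05 (edgeR quasi-likelihood test, Benjamini-Hochberg over 18716 genes), where 1.68% of all genes were called. DESeq2 called 2 of the 9 genes, Cftr higher and Atp1b1 lower, and 7.51% of all genes. At an unadjusted p under 0.05, 1 gene was higher (Cftr) and 3 were lower (Atp1b1, Scnn1b and Slc12a2), against 15.6% of all genes in either direction. The COPD libraries lay wholly above NC for Cftr alone, as they did for 14.3% of all genes, and wholly below for Atp1b1 and Scnn1b, as for 10.4%. The median log2 fold change of the 9 genes was -0.37, beside -0.02 for all genes tested, and 7 of the 9 were below 0. Without NC replicate 1 that median was -0.18.

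**Figure D1:**
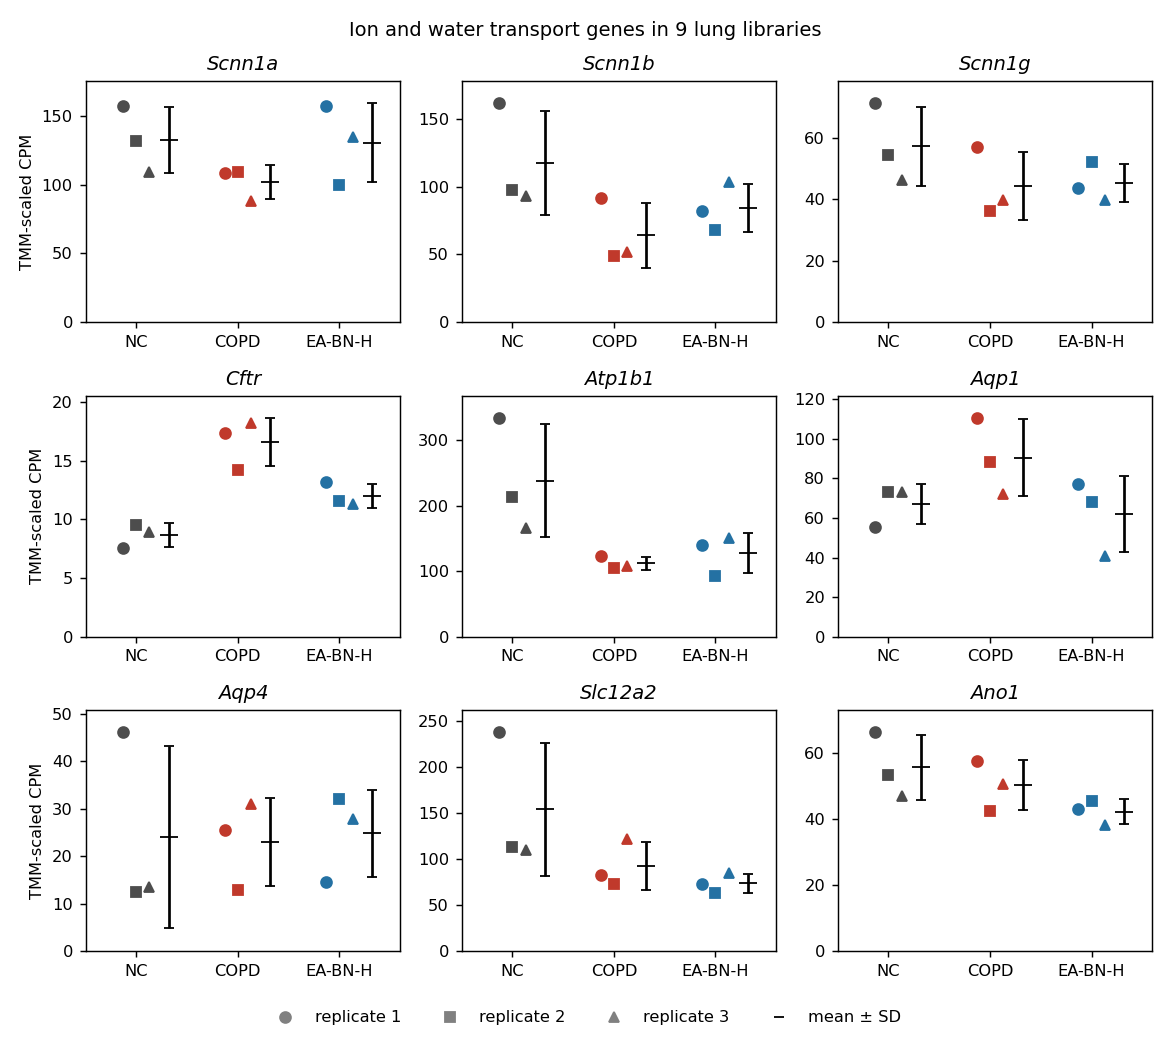
TMM-scaled CPM of each gene in the 9 libraries, by group, with mean and SD (n = 3) beside the points. Cftr separates the 3 groups on this scale (7.54 to 9.52 in NC, 11.3 to 13.2 in EA-BN-H, 14.3 to 18.2 in COPD), while in TPM its EA-BN-H and NC values overlap. NC replicate 1 is the highest library for 7 of the 9 genes.

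The sodium pump subunit gene Atp1b1 had 334.2, 213.3 and 166.3 CPM in NC, 123.2, 105.1 and 108 in COPD, and 139.1, 92.4 and 151.2 in lungs given EA-BN. Every exposed library was below every NC library. The mean level was 238 ± 86.6 CPM in NC and 112 ± 9.73 in COPD, a log2 fold change of -1.09 (SE 0.29, 95% interval -1.73 to -0.45), with an adjusted p of 0.0905 (edgeR). With the 6 exposed lungs set against NC, the log2 fold change was -0.99 (SE 0.24) and the adjusted p was 0.0532 (edgeR). No member was called in that comparison, where 3.41% of all genes were, and DESeq2 called 3 (Atp1b1, Cftr and Slc12a2) where it called 10.4% of all genes. The COPD against NC value was -0.76 without NC replicate 1.

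The ENaC subunit gene Scnn1b had 161.7, 97.6 and 93.3 CPM in NC, 91.7, 48.9 and 51.6 in COPD, and 82.3, 68.0 and 103.2 in lungs given EA-BN. The COPD libraries were all below NC, COPD replicate 1 only just. The log2 fold change for COPD against NC was -0.88 (SE 0.31, adjusted p = 0.207, edgeR) and it was -0.57 without NC replicate 1.

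The pore-forming alpha subunit gene Scnn1a had 157.6, 131.6 and 109.3 CPM in NC, 108.8, 109.4 and 88.0 in COPD, and 157.3, 100 and 135.2 in lungs given EA-BN. The groups overlapped, with a log2 fold change of -0.38 (SE 0.23, adjusted p = 0.478, edgeR) for COPD against NC. Scnn1g had 46.1 to 71.4 CPM in NC, 36.1 to 57.0 in COPD and 39.8 to 52.0 in lungs given EA-BN, with a log2 fold change of -0.37 (SE 0.24, adjusted p = 0.514, edgeR) for COPD against NC. Without NC replicate 1 these values were -0.24 for Scnn1a and -0.18 for Scnn1g, and Scnn1g was -0.59 without COPD replicate 1. Thus all 3 subunit genes had lower means in COPD than in NC and none passed the test.

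Shares within ENaC do not depend on the scaling of libraries. Of the summed TPM of the 3 subunits in NC, Scnn1a held 38.0% ± 2.87, Scnn1b 42.7% ± 3.43 and Scnn1g 19.3% ± 0.57 (SD, n = 3). In COPD the shares were 43.5% ± 6.64, 34.2% ± 5.77 and 22.3% ± 1.29. Scnn1b held 39.5% to 46.3% in NC and 29.0% to 40.4% in COPD, so the ranges overlapped, as they did for Scnn1a. Scnn1g held 18.7% to 19.8% in NC and 20.9% to 23.3% in COPD, without overlap, and 14.8% to 24.5% in the treated lungs. Such separation of 3 libraries from 3 was common: in CPM, COPD lay wholly above NC for 14.3% of all genes and wholly below for 10.4%. The shares depend on each other and were not tested.

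Among the chloride genes, Cftr had 7.54, 9.52 and 8.90 CPM in NC, 17.4, 14.3 and 18.2 in COPD, and 13.2, 11.6 and 11.3 in lungs given EA-BN. No library of a group crossed into another group's range on this scale. How many of all genes keep the groups apart in this way was not counted. In TPM the EA-BN-H values (0.929, 1.20 and 0.442) overlapped those of NC (0.849 to 0.965). COPD against NC gave a log2 fold change of 0.94 (SE 0.20, 95% interval 0.49 to 1.40), a 1.92-fold higher level, with an adjusted p of 0.0518 (edgeR). The values rest on 211 to 636 counts per library, all on a single RefSeq transcript. Without NC replicate 1 the log2 fold change was 0.85. The ionocyte markers named above, for a rare cell type rich in Cftr in the large airways, were at or near 0 (Foxi1 at 0, Ascl3 at most 0.268 CPM), and the share of alveolar type 2 or airway cells in the Cftr difference was not tested (alveolar type 2 markers summed to 2939 to 4342 CPM in NC and 4036 to 5489 in COPD).

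Slc12a2 (chr18:57878512-57946821), which supplies the chloride that Cftr and Ano1 release, had 238.3, 113.7 and 110.6 CPM in NC, 82.7, 72.7 and 121.8 in COPD, and 72.7, 63.8 and 85.0 in lungs given EA-BN. The EA-BN-H libraries were wholly below NC, and COPD replicate 3 was above the 2 lower NC libraries. The log2 fold change was -0.74 (SE 0.33, adjusted p = 0.311, edgeR) for COPD against NC and -1.06 (SE 0.33, adjusted p = 0.152, edgeR) for EA-BN-H against NC. NC replicate 1 set much of both values, which were -0.28 and -0.60 without it. The ratio of Slc12a2 to Cftr in TPM was 29.9, 11.6 and 11.9 in NC, 4.60 to 6.37 in COPD and 4.87 to 7.15 in lungs given EA-BN.

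Ano1 had 66.4, 53.6 and 47.2 CPM in NC, 57.6, 42.5 and 50.9 in COPD and 43.1, 45.6 and 38.3 in lungs given EA-BN. The COPD values overlapped those of NC, with COPD replicate 2 below the lowest NC library (log2 fold change -0.15, SE 0.20, adjusted p = 0.799, edgeR). The EA-BN-H values lay just below all NC values and overlapped those of COPD. EA-BN-H against NC gave a log2 fold change of -0.40 (SE 0.20, adjusted p = 0.408, edgeR).

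The water channel gene Aqp1 had 55.7, 72.9 and 73.1 CPM in NC, 110.8, 88.2 and 72.2 in COPD, and 77.1, 68.3 and 40.7 in lungs given EA-BN. The log2 fold change was 0.43 (SE 0.27, adjusted p = 0.498, edgeR) for COPD against NC and -0.54 (SE 0.27, adjusted p = 1, edgeR) for EA-BN-H against COPD. The lowest Aqp1 values within NC and within EA-BN-H were in NC replicate 1 and EA-BN-H replicate 3, the 2 libraries with the lowest sums of endothelial markers (383.9 and 507.4 CPM), and the part of endothelium in the Aqp1 values was not tested.

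Aqp4 (chr18:15389394-15410982) followed a split of the libraries rather than the groups. It had 46.1, 12.4 and 13.6 CPM in NC, 25.4, 12.9 and 30.9 in COPD, and 14.5, 32.1 and 27.8 in lungs given EA-BN. The 4 libraries with 12.4 to 14.5 CPM (NC replicates 2 and 3, COPD replicate 2 and EA-BN-H replicate 1) were those with the fewest genes with counts, 18674 to 20515 against 21438 to 23322 in the other 5, whose Aqp4 levels were 25.4 to 46.1 CPM. The other 8 genes did not separate in this way. The split was chosen after seeing the data, and how many of all genes separate along it was not counted. The same 4 libraries had no Aqp4 counts on the transcript NM_001308647 and 284 to 387 counts on NM_001308646, whereas the other 5 had 391 to 1107 on NM_001308647 and at most 2 on NM_001308646. The log2 fold change for COPD against NC was -0.06 (SE 0.53, adjusted p = 0.975, edgeR), and it was -0.34 (adjusted p = 0.438, edgeR) with a term for the split and 0.83 without NC replicate 1.

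**Figure D2:**
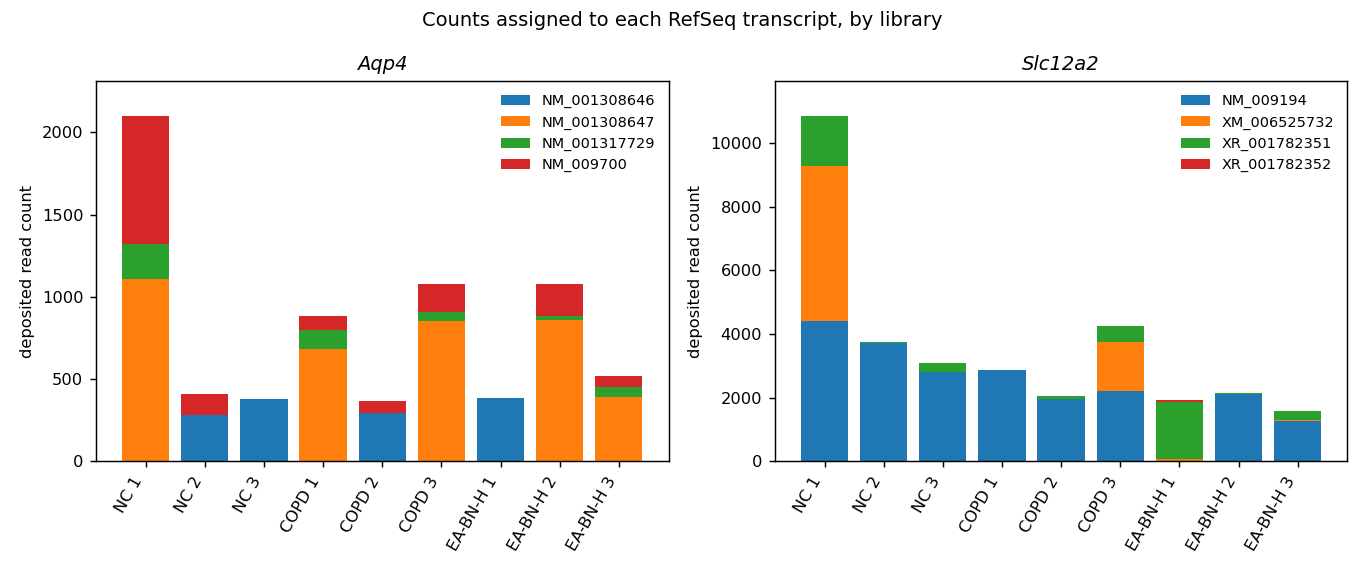
Deposited read counts of Aqp4 and Slc12a2 in each library, as bars stacked by RefSeq transcript (transcripts with more than 10 counts in all). Aqp4 counts sit on NM_001308647 in 5 libraries and on NM_001308646 in the other 4, and in NC replicate 1 the transcript XM_006525732 takes 4875 of the Slc12a2 counts.

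Transcript assignment also varied in other genes. Slc12a2 had 3 different leading transcripts among the 9 libraries, holding 44.9% to 99.6% of the counts, and in NC replicate 1 the predicted transcript XM_006525732 held 4875 counts, against 0 to 1534 elsewhere. Ano1, with 14 of 20 listed transcripts in use, had 5 leading transcripts at 38.1% to 93.9%. Scnn1g had 2. Atp1b1, Cftr and Aqp1 are listed with 1 transcript each, and Scnn1a kept the same leading transcript at 91.8% to 97% of its counts. Sums over transcripts are therefore used for every level given here.

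EA-BN-H against COPD asks whether the leaf fraction altered these genes in exposed lungs. None of the 9 genes was called by edgeR, DESeq2 or limma in this comparison, and 0% of all genes were called by edgeR. At an unadjusted p under 0.05, 1 of the 9 differed, against 1.62% of all genes. The EA-BN-H libraries were wholly below COPD for 1 gene, as for 3.32% of all genes, and wholly above for none, as for 3.00%. That gene was Cftr, with a mean of 12.0 ± 1.02 CPM against 16.6 ± 2.08 in COPD (log2 fold change -0.47, SE 0.20, 95% interval -0.92 to -0.02, adjusted p = 1, edgeR). Its level in CPM stayed above NC, where the log2 fold change was 0.48 (SE 0.20, adjusted p = 0.315, edgeR).

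For Atp1b1, EA-BN-H differed from COPD by a log2 of 0.19, with a 95% interval from -0.45 to 0.82. The interval was -0.15 to 0.87 for Scnn1a and -0.30 to 1.09 for Scnn1b. For Scnn1g the estimate was 0.03, for Aqp4 0.10, for Slc12a2 -0.32 and for Ano1 -0.25, each with an adjusted p of 1 (edgeR). These signs depend on the scaling: with library totals alone the median of all genes was -0.41, and the estimates of Scnn1a, Scnn1b, Scnn1g, Atp1b1 and Aqp4 then turned below 0.

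**Figure D3:**
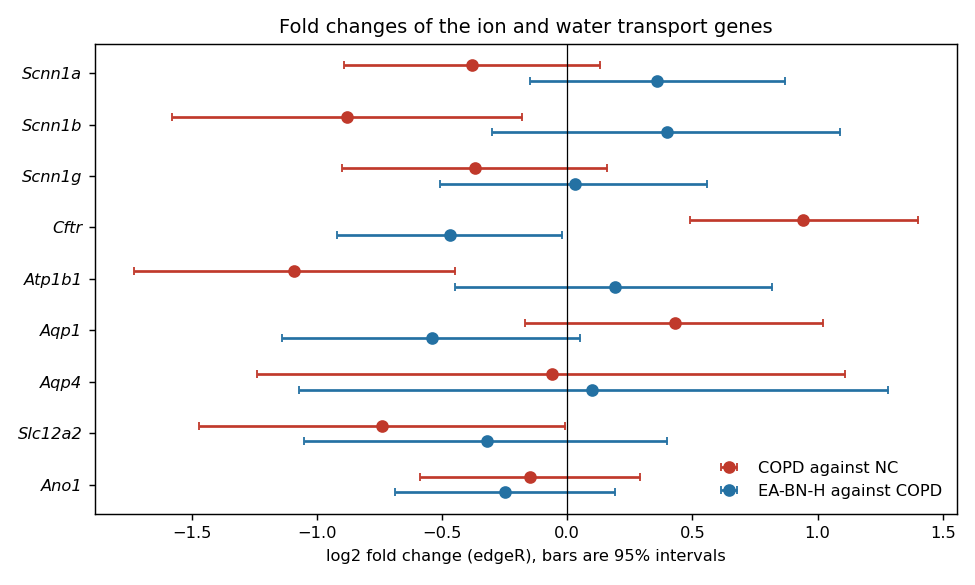
Log2 fold change of each gene with its 95% interval (edgeR), for COPD against NC and for EA-BN-H against COPD, which share the COPD libraries. The intervals of Cftr, Atp1b1, Scnn1b and Slc12a2 leave out 0 in the first comparison (Slc12a2 -1.47 to -0.01), and that of Cftr alone in the second.

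The treated lungs were also set against NC, with the same NC libraries as above. None of the 9 genes was called by edgeR, where 1.27% of all genes were, and DESeq2 called Atp1b1 and Slc12a2, with 7.11% of all genes. At an unadjusted p under 0.05, 1 was higher and 2 were lower (all genes 14.6%). The EA-BN-H libraries lay above NC for Cftr, as for 11.3% of all genes, and below for Atp1b1, Slc12a2 and Ano1, as for 8.17%. Atp1b1 had a log2 fold change of -0.90 (SE 0.29, adjusted p = 0.164, edgeR). With all 6 exposed lungs against NC, 1 gene was higher and 3 were lower at an unadjusted p under 0.05 (all genes 18.2%). All 6 lay above NC for Cftr (all genes 7.90%) and below for Atp1b1 (all genes 4.37%). Cftr had a log2 fold change of 0.71 (SE 0.18, adjusted p = 0.0637, edgeR) there, Slc12a2 -0.90 (SE 0.27, adjusted p = 0.107) and Scnn1b -0.68 (SE 0.26, adjusted p = 0.208). Without NC replicate 1 these were 0.62, -0.44 and -0.37.

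Most airway markers and the muscle markers had lower means in exposed lungs, as did Atp1b1, Scnn1b and Slc12a2. The airway secretory sum was 17750 CPM in NC, 7178 in COPD and 8749 in lungs given EA-BN on average. NC replicate 1 raised the NC mean (28780 CPM, against 14410 and 10070). Of the 6 markers, 4 were lower at an unadjusted p under 0.05 in exposed lungs (median log2 fold change -1.25), while Muc5b was at 0.29. Of all genes, 18.2% passed that p in either direction. Smooth muscle markers were lower at that p for 5 of 5 genes (median -1.03) and heart muscle markers for 5 of 5 (median -1.72). Ciliated cell markers averaged 1065, 737 and 957 CPM and none of the 5 passed that p. Whether fewer airway cells in the sampled tissue account for the 3 lower genes was not tested.

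The genes whose log2 CPM ran most closely with Atp1b1 over the 9 libraries were Prdx6 (Pearson r = 0.980), Cat (0.978) and Cyp4b1 (0.975). For Cftr they were Myo1e (0.974), Col1a1 (0.954) and Tmem86a (0.946), and for Slc12a2 they were Bbox1 (0.964), Hnmt (0.963) and Arl4a (0.962). The coefficients describe 9 libraries that share their scaling and their tissue make-up. They are the highest found over all genes tested, so high values were selected by the choice itself.

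The wider pathway was read from lists of 84 other genes, of which 72 were tested. In COPD against NC, 4 were called higher and 0 lower by edgeR at an adjusted p under 0.05 (13 and 6 at an unadjusted p under 0.05, and 9 and 3 called by DESeq2), where the shares of all genes were 1.68%, 15.6% and 7.51%, and their median log2 fold change was 0.10. In EA-BN-H against COPD none was called by edgeR or DESeq2, with 0 higher and 1 lower at the unadjusted p (all genes 0%, 0.0161% and 1.62%). In EA-BN-H against NC 2 were called higher and 0 lower (10 and 4 at the unadjusted p, and 8 and 0 by DESeq2), where the shares of all genes were 1.27%, 14.6% and 7.11%. With the 6 exposed lungs against NC, 4 were called higher and 2 lower (14 and 7 at the unadjusted p, and 10 and 4 by DESeq2), where the shares of all genes were 3.41%, 18.2% and 10.4%. These calls were few after leaving out a library: without NC replicate 1, 2 or 3, COPD replicate 1 or COPD replicate 3 none of the 72 was called in COPD against NC, and without EA-BN-H replicate 2, which enters that comparison only through the shared spread, 8 were called higher and 3 lower.

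**Figure D4:**
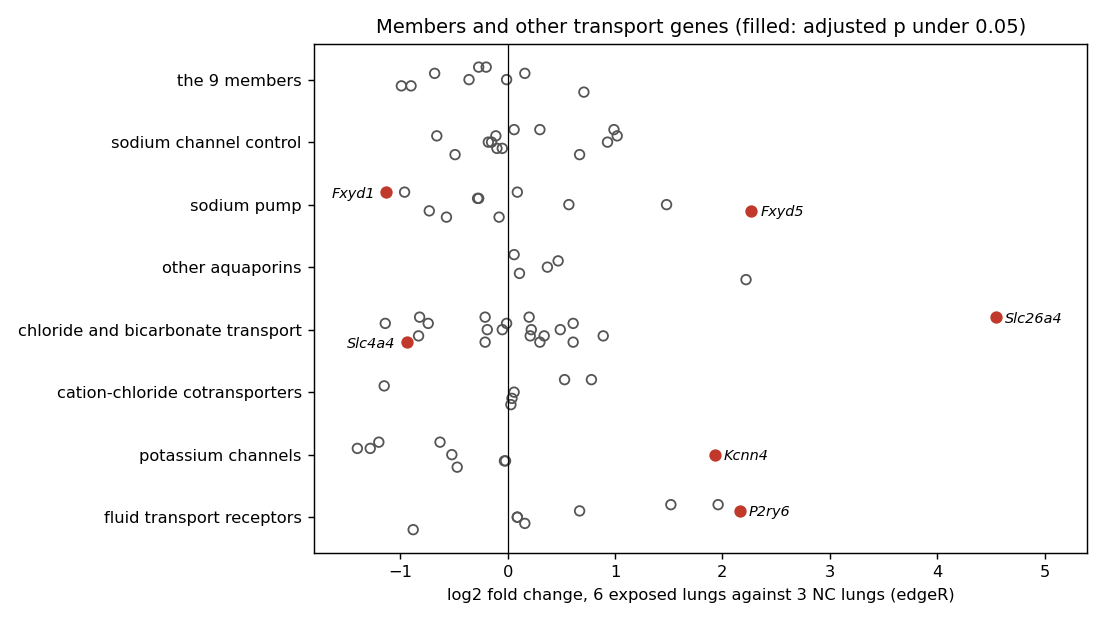
Log2 fold change of the 6 exposed lungs against the 3 NC lungs for the 9 genes and for each list of other transport genes (one point per gene, edgeR, filled where the adjusted p is under 0.05). The 9 genes lie between -0.99 and 0.71, and the called genes are Fxyd5, Slc26a4, Kcnn4 and P2ry6 above 0 and Fxyd1 and Slc4a4 below 0.

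Among partners of the sodium pump, 1 of 11 tested genes rose in COPD. Fxyd5 (dysadherin), a small subunit-like regulator that binds the pump, had 4.72, 7.79 and 5.33 CPM in NC and 32.8, 22.6 and 38.1 in COPD (log2 fold change 2.39, SE 0.47, adjusted p = 0.0376, edgeR), and 15.6, 48.8 and 14.7 in EA-BN-H. Every exposed library was above every NC library. Fxyd1 (phospholemman), the pump regulator best known from heart and muscle, fell in exposed lungs from 6.25 ± 1.37 CPM in NC to 2.50 ± 0.393 in COPD and 3.27 ± 0.428 in lungs given EA-BN (log2 fold change -1.13, SE 0.25, adjusted p = 0.0430, edgeR, all 6 exposed libraries below NC). Heart muscle markers summed to 257 CPM in NC, 128 in COPD and 67.1 in lungs given EA-BN on average. By library these sums were 106.2 to 357.9 CPM in NC and 58.65 to 193.7 in COPD, which overlapped, and 33.24 to 90.02 in EA-BN-H. Smooth muscle markers averaged sums of 763, 361 and 400 CPM in NC, COPD and EA-BN-H, and NC replicate 1 (1125 CPM) raised the NC mean. The part of either muscle in the Fxyd1 difference was not tested. Leaving out any one of the 9 libraries brought the adjusted p of Fxyd1 above 0.05 (0.0595 to 0.146, edgeR).

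Among the 20 tested chloride and bicarbonate genes, Slc26a4 rose and Slc4a4 fell in exposed lungs. Slc26a4 (pendrin), an apical exchanger of chloride for bicarbonate, had 0.175, 2.33 and 0.679 CPM in NC, 27.5, 22.8 and 43.5 in COPD, and 11.4, 41.9 and 4.92 in lungs given EA-BN (COPD against NC log2 fold change 4.90, SE 0.97, adjusted p = 0.0387, edgeR). Its treated libraries spanned nearly the whole range of the exposed lungs. Slc4a4, the sodium bicarbonate cotransporter of the blood-side membrane, had 43.6 ± 5.73 CPM in NC, 20.3 ± 2.08 in COPD and 25.6 ± 8.61 in lungs given EA-BN (exposed against NC -0.94, SE 0.22, adjusted p = 0.0470, edgeR). The Slc4a4 call was lost without any one NC or COPD library or EA-BN-H replicate 1 (adjusted p from 0.0644 to 0.148, edgeR), and the Slc26a4 call in COPD against NC also without COPD replicate 2 or EA-BN-H replicate 1 (adjusted p = 0.0557 and 0.0505).

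Kcnn4, a calcium-activated potassium channel of epithelia and leukocytes, was the 1 of 9 tested potassium channels called higher in COPD, with 3.27 ± 0.191 CPM in NC, 14.0 ± 1.53 in COPD and 11.1 ± 4.07 in lungs given EA-BN (COPD against NC log2 fold change 2.09, SE 0.28, adjusted p = 0.0220, edgeR). P2ry6, a receptor for UDP found on macrophages as well as epithelium, was the 1 of 8 receptors called, with 2.59 ± 0.808, 12.1 ± 2.35 and 11.1 ± 6.47 CPM (2.22, SE 0.42, adjusted p = 0.0351, edgeR). Both, with Fxyd5, were highest within EA-BN-H in replicate 2, which also had that group's highest leukocyte sum (1916 CPM, against 667.2 and 1028). That library was also the group's highest for Slc26a4 and for the alveolar markers Pdpn and Lamp3, but not for Ager or Sftpc. The part of leukocytes in these rises of Kcnn4, P2ry6 and Fxyd5 was not tested.

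Regulators of ENaC held no gene called by edgeR among 13 tested, with 3 higher and 1 lower at an unadjusted p under 0.05 in COPD. DESeq2 called Sgk1 (adjusted p = 0.0236) and Furin (adjusted p = 0.0367) higher. Sgk1, the kinase that keeps ENaC at the surface, had 24.96, 25.61 and 34.21 CPM in NC and 56.4, 58.5 and 70.8 in COPD (log2 fold change 1.13, SE 0.34, adjusted p = 0.126, edgeR). Nedd4l, the ubiquitin ligase that removes ENaC, had 115 ± 13.4 CPM in NC and 99.0 ± 22.2 in COPD. Of the proteases that activate the channel, Prss8 had 51.5 ± 14.1 CPM in NC and 28.7 ± 5.28 in COPD (-0.84, SE 0.30, adjusted p = 0.206, edgeR), while Furin had 58.3 ± 19.1 and 115 ± 3.95 (0.99, SE 0.31, adjusted p = 0.150, edgeR). Wnk1, a kinase of salt transport, had 307 ± 28.4 CPM in NC and 301 ± 6.49 in COPD.

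No other aquaporin was called by edgeR among 5 tested, and none had an unadjusted p under 0.05. Aqp5, the water channel of alveolar type 1 cells, had 46.2 ± 4.88 CPM in NC, 54.1 ± 12.9 in COPD and 46.1 ± 11.8 in lungs given EA-BN (adjusted p = 0.728 for COPD against NC, edgeR). Aqp3 was at 0 in 4 libraries and at most 3.12 CPM elsewhere, and Aqp9 reached 4.52 CPM at most. Among the 6 tested relatives of Slc12a2 edgeR called none, with 1 higher at an unadjusted p under 0.05 in COPD (Slc12a9), Slc12a9 having 11.3 ± 3.12 CPM in NC, 18.8 ± 1.28 in COPD and 19.9 ± 2.52 in lungs given EA-BN, and Slc12a4 32.1 ± 11.2, 48.3 ± 3.03 and 44.3 ± 11.4.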

How the data were processed

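The authors deposited 1 table of 129299 RefSeq transcripts of mm10. The authors made an estimated count with StringTie (whole numbers, not normalized), an FPKM and a TPM for each transcript and library, the last pair scaled by transcript length and library size. Tools named in the submitters' processing notes were StringTie 2.1.3b, HISAT2 2.1.0, Trimmomatic 0.38 and DESeq2, while the paper names HTSeq. The kit was stranded, and whether strand was used in counting is not given in the sources used here. Estimated counts were summed by gene identifier to 45777 genes. Low counts were removed by filterByExpr of edgeR 4.0.16 (R 4.3.3), which left 18716 genes, scaled by TMM. The quasi-likelihood test was fitted to all 9 libraries without a replicate block, with 4 comparisons, Benjamini-Hochberg adjustment over all genes tested and a threshold of 0.05. The common biological coefficient of variation was 0.438. The deposited TPM was used to compare genes. The method was tested on simulated data.

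Alternatives were DESeq2 1.42.0 with and without shrunken fold changes, other scalings and filters, only the groups compared, a replicate block, limma 3.58.1 on TPM and FPKM (log2 with a pseudocount of 0.1) and leaving out libraries. Members, lists and marker genes were chosen with earlier results of these data known. Named were all members, 8 set genes of the pathway (some are not reported here), and in each list the called genes or, without any, the 2 with the smallest p with exposed lungs against NC. Genes alike were the 3 with the highest r of log2 CPM (prior count 2), for the 3 members with the smallest p in that comparison.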

Additional observations from a re-analysis of the deposited data

How the results depend on the processing

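None of the 9 genes was called by the main test in any comparison. DESeq2, with or without shrunken fold changes, called 2 in COPD against NC and 2 in EA-BN-H against NC, and DESeq2 called 3 with exposed lungs against NC. In that last comparison library totals alone, scaling on nuclear protein-coding genes, no low-count filter and at least 1 count in every library each called 1, Atp1b1. Leaving out 1 library gave 0 to 2 called genes in COPD against NC and 0 in the others. Directions that turned were those of values near 0 or of values that follow the scaling. For EA-BN-H against COPD, library totals alone (median of all genes -0.41), limma on TPM (-0.70) and limma on FPKM (-0.42) gave, in that order, -0.082, -0.44 and -0.10 for Scnn1a, -0.34, -0.75 and -0.42 for Scnn1g, -0.29, -0.62 and -0.28 for Atp1b1 and -0.32, -0.63 and -0.32 for Aqp4, while Scnn1b had -0.054 with library totals and -0.33 on TPM. Without single libraries Scnn1g ranged from -0.10 to 0.25 and Aqp4 from -0.18 to 0.38 there. Aqp4 in COPD against NC was 0.0013 with library totals, 0.024 with the replicate block, 0.19 on TPM, 0.16 on FPKM and -0.39 to 0.83 without single libraries. Cftr in EA-BN-H against NC was -0.19 on TPM. Settings chosen after seeing the data included leaving out NC replicate 1 and EA-BN-H replicate 3 together. That turned Aqp4 to 0.84 and Ano1 to 0.011 in COPD against NC (Ano1 -0.26 to -1.2e-05 without single libraries). The other was a term for the 4 libraries with fewer genes detected, which turned none of the 860 alternative values counted below. Aqp4 in EA-BN-H against NC (0.04 in the main fit) is not among those values. In that comparison 1 of the 9 genes was above 0 with the term, against 2 in the main fit. Cause was not tested. The replicate block called none of the 9 genes and none of all genes tested. Same-numbered libraries had residual correlations of -0.243 to 0.127, and differently numbered ones -0.229 to 0.275. Residuals centred within groups of 3 cannot settle whether libraries were paired. Of 860 alternative values, 704 kept direction and side of the threshold, 96 lost the call, 32 gained one and 28 turned. The lost calls were all of Fxyd1, Fxyd5, Slc4a4, Slc26a4, Kcnn4 or P2ry6. Among the values counted, only these genes had a call in the main fit to lose. The 704 therefore does not measure how steady the calls were. With exposed lungs against NC, shrunken fold changes were not run, and the fit on only the groups compared is the same fit. Low counts limit Cftr (211 to 636) and Fxyd1.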
